A study of Rattus norvegicus with 21 samples.

Results

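The comparison described here sets rat spinal cord cultures treated with MP for 4 hr against PBS-treated cultures of the same age. It rests on 6 of the 21 two-colour arrays of a study that tested compounds against inflammation in injured cord: the 3 arrays titled MP and the 3 unpooled PBS arrays, which the labels call Injured 4 hr. Each array set total RNA of the named cultures against a pool of PBS-treated 4 hr cultures, so the pool cancels in the difference MP minus Injured 4 hr only if it was the same RNA for both groups. The array titles write this reference as PBS 4hr for MP and as PBS 4hrpooled for Injured 4 hr. The labels do not say that it was a single pool, and a difference between pools cannot be told apart from one between MP and Injured 4 hr. The labels treat a PBS culture as the injured state, in contrast to freshly dissected cord. MP is not spelled out in the labels; in spinal cord injury work the letters stand for methylprednisolone, a synthetic glucocorticoid, and that reading is used below as background only. Dose, strain, age and sex are not named in the labels, and nothing says whether the 3 arrays of a group came from separate animals or cultures. The p-values therefore measure the spread between these arrays, which may be technical.

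For comparison, 2 further treatments read against a pool of PBS-treated 4 hr cultures were used. These were 3 arrays of acetaminophen (Acet), an analgesic with weak cyclooxygenase inhibition, and 3 arrays of CKIN, a label that is not spelled out. The remaining 9 arrays, of fresh uninjured cord and of indomethacin (Indo) and NS398 cultures set against ethanol and DMSO pools, entered the fit for its estimate of the spread.

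Glucocorticoids enter cells and bind the glucocorticoid receptor, encoded by Nr3c1, which moves to the nucleus and acts as a transcription factor. Bound to DNA at glucocorticoid response elements it raises genes such as Tsc22d3 (GILZ), Sgk1, Dusp1, Klf9 and the metallothionein Mt1. By holding back NF-kB and AP-1 it lowers cytokines, chemokines and inducible enzymes of prostaglandin synthesis. In spinal cord injury methylprednisolone was given for its effect on inflammation and lipid oxidation.

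The deposited value of a probe is a log2 ratio of sample over pool, read in the order of the array titles, and the arrays did not share a common median. The median ratio was 0.31, -1.33 and 0.39 on MP 1, MP 2 and MP 3, and it was -2.26, -2.20 and -2.12 on the Injured 4 hr arrays. Each array was therefore centred on its own median, and all values below are centred log2 ratios unless stated. A centred ratio is not an expression level: it is compared only between arrays on the same probe. With fewer cells of a type and less RNA per cell both giving a lower ratio, the 2 cannot be told apart in these bulk samples.

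**Figure D1:**
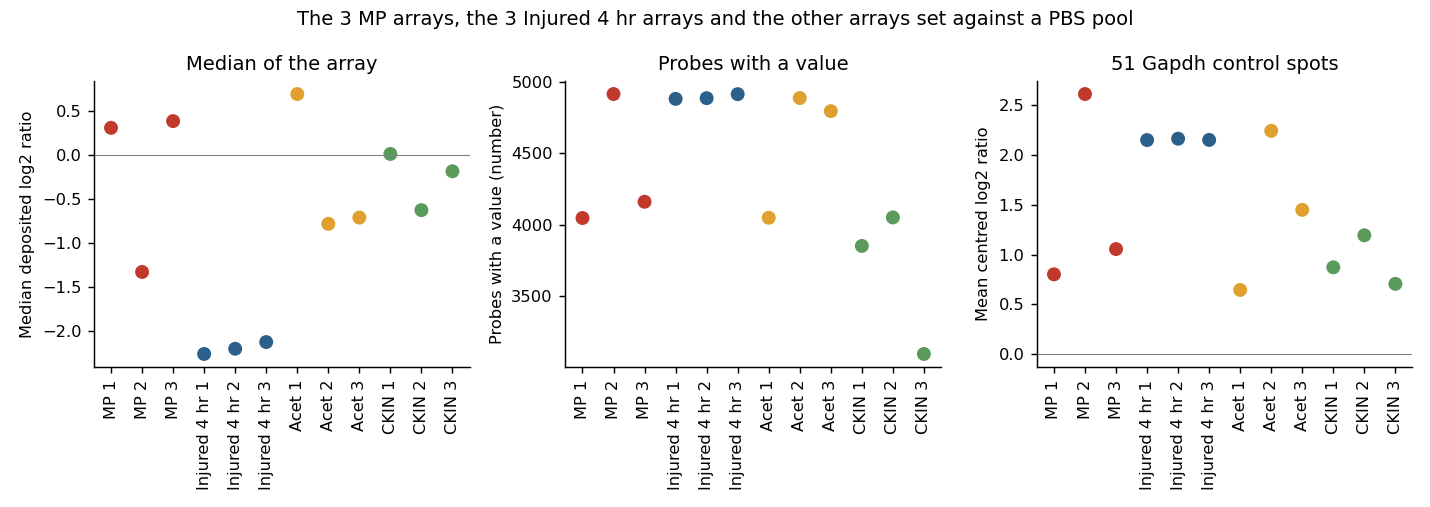
Each point is 1 array: the median deposited log2 ratio (left), the number of probes with a value (middle) and the mean centred log2 ratio of 51 Gapdh control spots (right), for the MP, Injured 4 hr, Acet and CKIN arrays. On all 3 axes MP 2 lies away from MP 1 and MP 3; for probes with a value and Gapdh it lies beside or beyond the Injured 4 hr arrays.

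MP 2 stood apart from the other MP arrays. It had a value for 4916 probes, next to 4882 to 4915 on the Injured 4 hr arrays, whereas MP 1 had 4046 and MP 3 had 4160. The 51 spots of Gapdh, a glycolytic enzyme spotted as a control, averaged 2.61 on MP 2 against 0.80 and 1.06 on MP 1 and MP 3, and 2.15 to 2.17 on the Injured 4 hr arrays. Across probes, which are not independent replicates and share the pool channel, MP 2 correlated with the Injured 4 hr arrays at r = 0.74 to 0.77 and with MP 1 and MP 3 at 0.56 and 0.59. MP 1 and MP 3 correlated with the Injured 4 hr arrays at 0.40 to 0.47 and with each other at 0.68. The array most like MP 2 among those compared was Acet 2, at 0.82. The median standard deviation of a probe was 0.49 over the 3 MP arrays, 0.27 over MP 1 and MP 3, and 0.23 over the Injured 4 hr arrays. Results are therefore given with and without MP 2.

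Of 4392 probes with 2 or more values a side, 94 (2.14%) differed between MP and Injured 4 hr at an adjusted p under 0.05 (limma, Benjamini-Hochberg). Of these, 2 (0.0455% of those tested) were higher in MP and 92 (2.09%) were lower. At an unadjusted p under 0.05 there were 778 probes (17.7%), 111 higher (2.53%) and 667 lower (15.2%). The MP and Injured 4 hr arrays did not overlap on 1202 probes (27.4%), with MP higher on 6.90% and lower on 20.5%, and all 94 called probes were among them. The median difference over all tested probes was -0.27, and the MP mean lay below the Injured 4 hr mean on 68.2% of them even after centring. Acet, CKIN, Indo and NS398 shared this shift, with 64.8% to 68.0% of probes below Injured 4 hr. Each array was centred over the probes with a value on it, which were fewer on MP 1 and MP 3. The part of this shift in the excess of falls was not tested. The 92 probes that fell carry 75 named genes. Their group means had a median of -0.14 in Injured 4 hr and -1.81 in MP, and their differences ranged from -2.74 to -1.27.

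The count depended on the arrays and on the centring. Without MP 2 it was 608 of 3639 (16.7%), 20 higher and 588 lower (16.2%), and 92 of the 93 called probes still tested were called again with the same sign; leaving out any other array of the comparison left 3 to 9. In the deposited ratios, without centring, 3171 probes were called and all were higher in MP, with a median difference of 1.66; 70 of the 94 probes then had the opposite sign. The direction of the falls is therefore relative to the median probe of each array. Corrected ratios had the plate medians and a trend on the mean centred ratio of the unpooled PBS arrays removed. That trend was on ratios of the control side of the tested difference, not on spot signal. In corrected ratios 46 were called, 12 higher and 34 lower, of which 36 were shared with the 94. Quantile normalization gave 35, 9 higher and 26 lower.

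**Figure D2:**
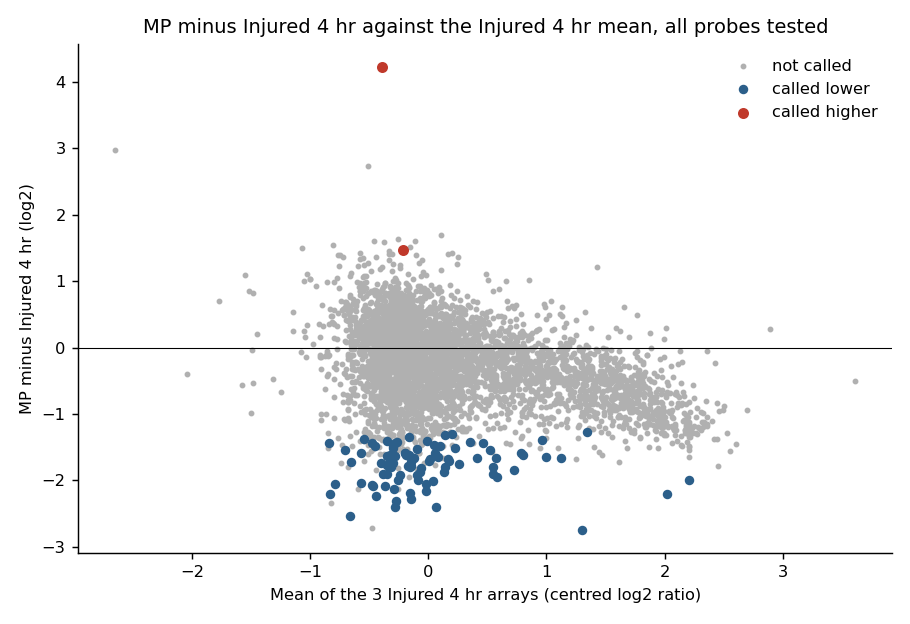
Each point is a probe: the mean centred log2 ratio of the 3 Injured 4 hr arrays (horizontal) against the log2 difference MP minus Injured 4 hr (vertical), for all 4392 tested probes. The 92 called falls (blue) gather around the centre of the horizontal axis, the 2 called rises (red) are Barhl1 and a Nos3 probe, and uncalled probes (grey) drift below 0 towards the right.

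The falls were uneven over the array. The probe identifiers read as plate, row and column of a spotting plate. Plates 36 to 53 held 32.7% of the tested probes and 77.7% of the calls (73 of 94), with 5.08% of their tested probes called against 0.71% on lower plates. Well columns 1, 2, 5, 6, 9 and 10 held 2237 tested probes, of which 74 were called (3.31%), and the median difference there was -0.44. The other columns held 2155, of which 20 were called (0.928%), with a median of -0.12. When each array was centred within plate and column class, an alternative added after seeing the data, 19 probes were called, 2 higher and 17 lower, and 17 of these were among the 94. The part of well position in the 94 calls beyond this count was not tested.

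**Figure D3:**
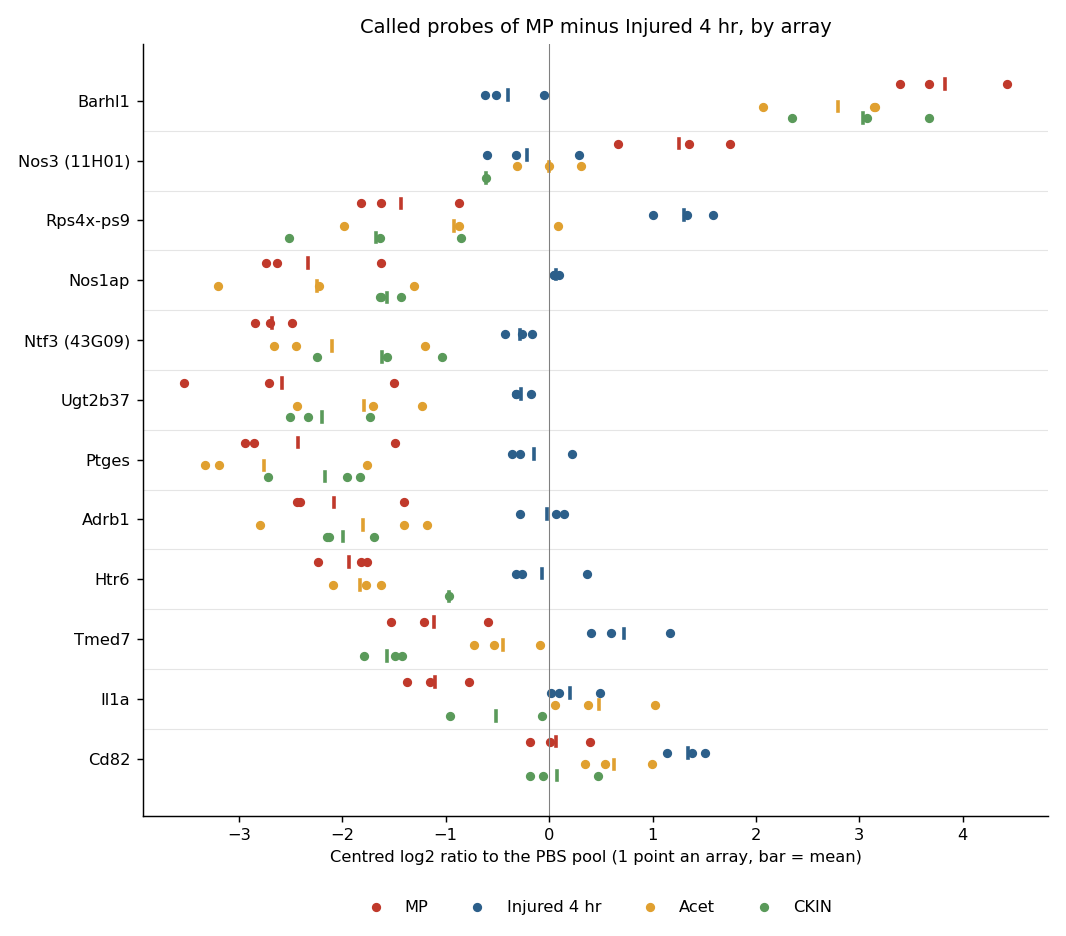
Centred log2 ratio to the PBS pool for 12 called probes of MP minus Injured 4 hr; each point is 1 array and each vertical bar a group mean, coloured by group. MP (red) and Injured 4 hr (blue) do not overlap on any of the 12, while Acet (yellow) and CKIN (green) lie nearer MP than Injured 4 hr on Barhl1, Nos1ap, Ntf3 and Ptges and, for Acet, nearer Injured 4 hr on Il1a and Nos3.

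The largest difference was a rise. Barhl1, a homeodomain transcription factor of dorsal spinal interneurons, read 3.39, 3.67 and 4.43 on the MP arrays and -0.05, -0.62 and -0.52 on the Injured 4 hr arrays. The groups lay far apart, and MP 2 lay between the other MP arrays. The difference was 4.22 ± 0.65 (SE, n = 3 and 3; adjusted p = 0.00547, limma), and the probe was called without each array in turn and under all 12 other settings. Acet at 3.15, 3.14 and 2.07 and CKIN at 3.68, 2.34 and 3.07 were also high, so the rise was not particular to MP. The Indo and NS398 arrays were not read on this probe here.

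The other rise and 2 of the falls belonged to the nitric oxide system, in which Nos3 is the endothelial synthase and Nos1ap an adaptor of the neuronal synthase. Nos3 probe 11H01 read 1.35, 0.66 and 1.75 in MP and -0.32, -0.60 and 0.29 in Injured 4 hr, all MP arrays above all Injured 4 hr arrays. It rose by 1.47 ± 0.35 (SE; adjusted p = 0.0317). Unlike Barhl1 it read 0.31, -0.32 and 0.00 in Acet; the direct difference MP minus Acet was 1.26 and did not pass (adjusted p = 0.411). A different Nos3 probe, 52A02, fell by 1.79 ± 0.39 (adjusted p = 0.0213), and the remaining one, 11H09, differed by -0.84 (adjusted p = 0.263), so the probes of this gene disagree and no direction is given for it. Nos1ap read -2.63, -1.62 and -2.74 in MP and 0.10, 0.05 and 0.04 in Injured 4 hr, a fall of 2.40 ± 0.43 (adjusted p = 0.00883). Over the 22 probes of the nitric oxide list the median difference was 0.03; Arg1, the arginase that competes for the same substrate, differed by 0.86 (adjusted p = 0.243). Inducible Nos2 had a probe but too few values to test.

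Ntf3 encodes neurotrophin-3, a growth factor for proprioceptive and corticospinal neurons. Its probe 43G09 read -2.85, -2.70 and -2.49 in MP and -0.43, -0.17 and -0.26 in Injured 4 hr, tight in both groups and with MP 2 in the middle. The fall of 2.39 ± 0.39 (SE; adjusted p = 0.00654) was called without each array in turn and in 11 of 12 other settings. A second Ntf3 probe, 52H09, differed by -0.98 (adjusted p = 0.207). Among 21 probes of neurotrophic factors and receptors 43G09 was the only call, where 2.14% of all probes were called, and the median was -0.41.

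Cytokines and chemokines are the classical targets of glucocorticoid repression. Of 43 tested probes 1 was called, a fall, and 2 were higher and 7 lower at an unadjusted p under 0.05; over all probes 2.14% were called and 15.2% were lower at that p, so these counts are near the background. The median was -0.47 against -0.27 over all probes. The call was Il1a, interleukin-1 alpha, an early alarm cytokine of injured cord. It read -1.15, -0.78 and -1.38 in MP and 0.49, 0.02 and 0.09 in Injured 4 hr, without overlap, and fell by 1.30 ± 0.34 (SE; adjusted p = 0.0439). Without MP 2 the fall was 1.46 (adjusted p = 0.0125). It was called in 1 of 6 omissions, the omission of MP 2.

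On several chemokines MP 2 was split from MP 1 and MP 3, as it was on the Gapdh control spots. Those averaged 0.80, 2.61 and 1.06 on MP 1, MP 2 and MP 3 and 2.15 to 2.17 in Injured 4 hr, so the split is not particular to chemokines. Ccl4, a macrophage inflammatory protein, read -1.03 and -1.23 on MP 1 and MP 3 but 1.83 on MP 2, against 1.40, 1.65 and 1.36 in Injured 4 hr. MP 1 and MP 3 thus lay far below every Injured 4 hr array and MP 2 lay above them all. Ccl4 differed by -1.61 over the 3 arrays (adjusted p = 0.18) and by -2.60 without MP 2 (adjusted p = 0.00432). Ccl3, its neighbour in function, read -0.82, 1.85 and -1.36 against 1.47, 1.67 and 1.72 and did not pass with all arrays (-1.73, adjusted p = 0.41). Without MP 2 its difference was -2.71, the lowest of the list. The neutrophil attractant Cxcl2 read -0.47, 2.04 and -0.37 against 1.69, 1.77 and 1.22 and differed by -1.16 (adjusted p = 0.276), or -1.98 without MP 2 (adjusted p = 0.0104). Without MP 2, 5 of 36 cytokine and chemokine probes were called, all lower, where 16.2% of all probes were called lower, so the list's count is no higher than the background. In the same fit 54 of 67 ribosomal protein probes were called lower. The remaining cytokines gave no call with all arrays: Tnf differed by -0.65, Il6 by 0.22, Il1b by -0.72 and 0.02 on its 2 probes, Ccl2 by -0.70 and -0.64, and Cxcl1 by -0.64. Il3 was the highest of the list at 1.02 (adjusted p = 0.235).

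No probe of NF-kB, its receptors, adhesion targets and feedback inhibitors was called by limma among 26 tested, where 2.14% of all probes were called. At an unadjusted p under 0.05, 5 were lower and 0 higher, against 15.2% and 2.53% of all probes, so these counts are near the background. The median was -0.26, against -0.27 over all probes. Nfkbia, the inhibitor that NF-kB induces against itself and that glucocorticoids also raise, read -0.25, 1.89 and -0.26 in MP and 1.17, 1.19 and 1.25 in Injured 4 hr. It shows the split seen on the Gapdh control spots and the chemokines, with a difference of -0.75 (adjusted p = 0.412) that became -1.46 without MP 2 (adjusted p = 0.0181). Irf1, an interferon-response factor, differed by -1.26 (adjusted p = 0.0718). The adhesion molecules Icam1 (-0.06) and Vcam1 (0.16) and the cytokine-signalling suppressor Socs3 (0.09) lay close to 0.

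Prostaglandin E2 is made in sequence by phospholipase A2, cyclooxygenase and a terminal synthase, and of these enzymes the inducible terminal synthase Ptges fell. Ptges read -1.49, -2.94 and -2.85 in MP and -0.36, 0.22 and -0.29 in Injured 4 hr; all MP arrays were lower, with MP 2 the lowest. The difference was -2.28 ± 0.47 (SE; adjusted p = 0.0177), and -2.03 without MP 2 (adjusted p = 0.0125). Acet at -3.19, -3.33 and -1.76 and CKIN at -1.96, -2.72 and -1.83 overlapped MP. The inducible cyclooxygenase Ptgs2, probe 16H10, read -0.13, 1.47 and 0.70 against 1.15, 1.25 and 0.85, which overlap, and differed by -0.40 (adjusted p = 0.623). Ptges was the 1 call among 26 prostanoid and leukotriene probes, whose median was -0.11, where 2.14% of all probes were called. The thromboxane receptor Tbxa2r differed by -1.83 (adjusted p = 0.0716) and Alox15, a lipoxygenase, was highest at 0.85 (adjusted p = 0.455).

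The RefSeq promoter of Ptges (GRCr8, chr3:34586938-34587237, minus strand, printed 5′ to 3′ along the gene) is shown because Ptges is the called prostaglandin gene. Capitals mark the only match to TGTTCT, the hexamer that glucocorticoid response elements repeat, here on the opposite strand as AGAACA beginning at base -214 from the start.
Ptges: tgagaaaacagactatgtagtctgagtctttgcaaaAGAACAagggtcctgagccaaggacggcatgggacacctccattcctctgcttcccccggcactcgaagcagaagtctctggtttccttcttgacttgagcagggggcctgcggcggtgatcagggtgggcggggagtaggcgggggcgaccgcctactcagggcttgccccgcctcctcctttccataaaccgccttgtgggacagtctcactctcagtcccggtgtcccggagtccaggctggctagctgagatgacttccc
TGTTCT on either strand occurs in 21.6% of the promoters of 27457 genes, and in 4 of the 62 called-lower genes that have a promoter in the table (6.45%). The full palindromic element occurs in 2 of the 27457 and in 0 of the 62. A match is a description of letters, not a binding site.

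The genes that glucocorticoids are known to raise gave no call against Injured 4 hr. Limma called 0 of 29 probes (26 genes), where 0.0455% of all probes were called higher and 2.09% lower. At an unadjusted p under 0.05, 0 were higher and 2 lower, against 2.53% and 15.2% of all probes. With so few rises over all probes, the absence of rises in this list is near the background. The median was -0.38 in centred ratios, against -0.27 over all probes, and 0.01 in corrected ratios. Tsc22d3, which encodes the leucine zipper GILZ, read -0.07, 0.72 and 0.96 in MP and 0.51, 0.89 and 0.77 in Injured 4 hr. The groups overlap, and the difference was -0.19 ± 0.36 (SE; adjusted p = 0.825). Sgk1, a kinase of ion transport, differed by -0.57 (adjusted p = 0.327), the phosphatase Dusp1 by 0.30 (0.705), the mRNA-decay factor Zfp36 by -0.42 (0.717), the repressor Klf9 by -0.38 (0.626), annexin Anxa1 by -0.72 (0.362) and glutamine synthetase Glul by -0.70 (0.526), adjusted p in parentheses. The 3 Mt1 probes differed by -0.01, -0.14 and -0.33. The list ran from -1.35 for the connexin Gjb6 to 0.32 for the cell-cycle inhibitor Cdkn1a, probe 29D11. Fkbp5, Per1, Mt2A and Igfbp1 had no probe, and Cebpd could not be tested. Without MP 2 the list had 0 higher and 2 lower calls of 27 probes, Nfkbia and Cebpb, where 16.2% of all probes were called lower.

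The receptor itself was the highest of 14 probes of the steroid receptor system, whose median was 0.09. Of the 14, 0 were called by limma and 1 was higher at an unadjusted p under 0.05, against 2.14% and 2.53% of all probes. Nr3c1 read 0.84, 0.10 and 1.24 in MP and -0.35, 0.04 and -0.18 in Injured 4 hr, every MP array above every Injured 4 hr array, with MP 2 close to them. The difference was 0.89 ± 0.39 (SE; adjusted p = 0.235), and 1.21 without MP 2 (adjusted p = 0.044). Acet and CKIN averaged 0.39 ± 0.51 and 0.55 ± 0.21 (SD, n = 3 each), between Injured 4 hr and the MP mean of 0.73 ± 0.58 (SD, n = 3). The chaperone Hsp90ab1, which holds the unbound receptor, was the lowest at -0.95 (adjusted p = 0.303).

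**Figure D4:**
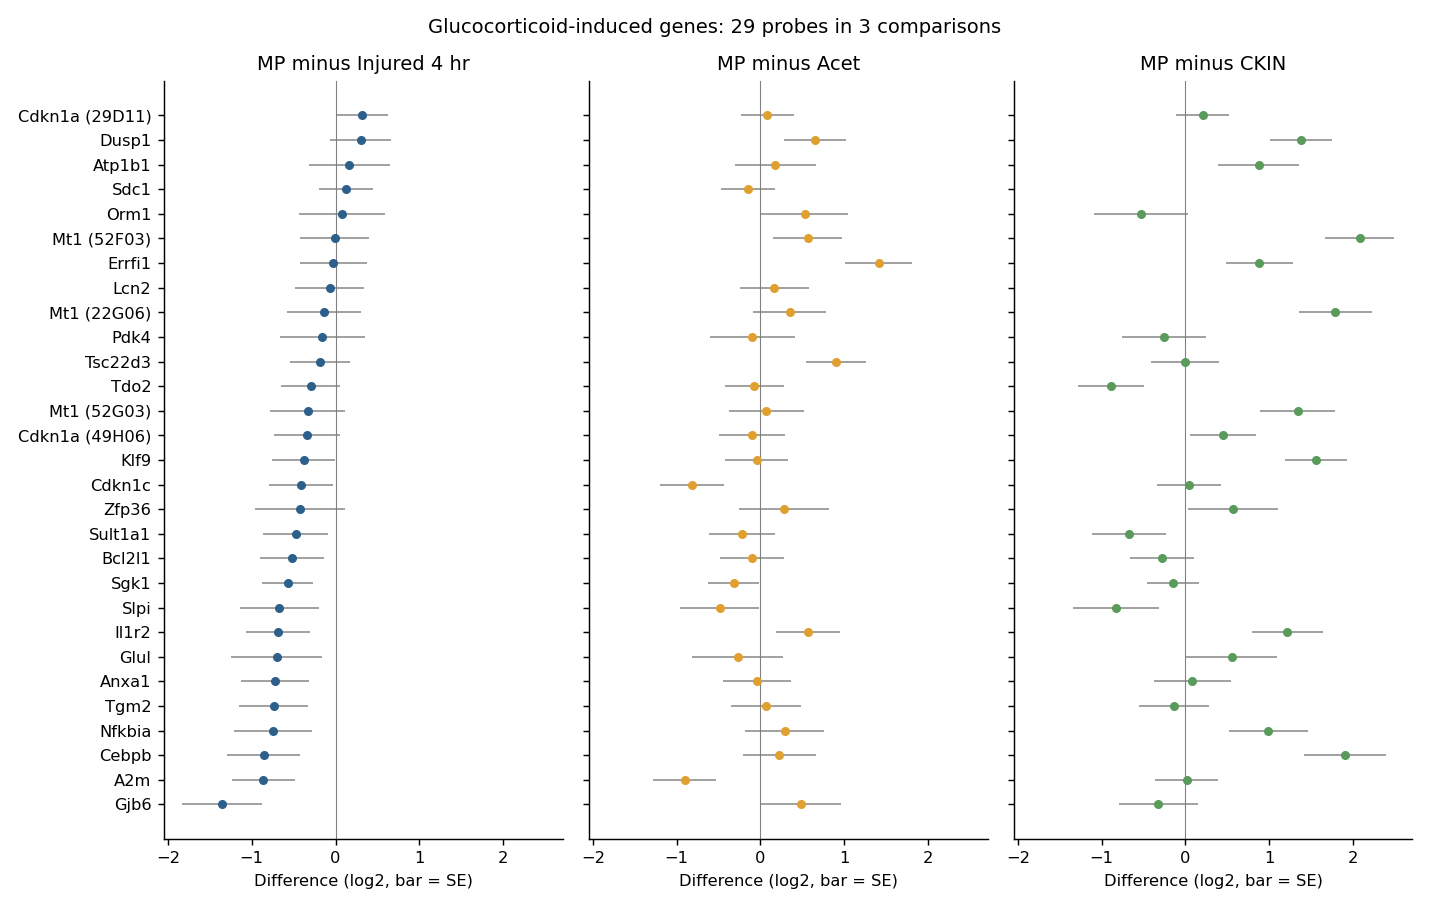
Log2 difference (point) with its standard error (bar) for the 29 probes of glucocorticoid-induced genes, in MP minus Injured 4 hr (left), MP minus Acet (middle) and MP minus CKIN (right); a missing point was not tested. Most probes lie left of 0 against Injured 4 hr, whereas the 3 Mt1 probes, Cebpb, Klf9 and Dusp1 lie furthest right against CKIN.

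Receptor and channel probes called against Injured 4 hr were all lower, and all 8 lie on plates 36 to 53, where 5.08% of tested probes were called; over all plates 2.09% were called lower. Among 46 monoamine and acetylcholine receptor probes 3 were called: Adrb1, the beta-1 adrenoceptor (-2.41, -1.40 and -2.43 in MP; 0.07, -0.28 and 0.14 in Injured 4 hr), fell by 2.06 ± 0.41 (SE; adjusted p = 0.0177). Htr6, the serotonin 6 receptor, read -1.76, -2.23 and -1.82 against -0.32, -0.26 and 0.36 and fell by 1.87 ± 0.33 (adjusted p = 0.00883). Adrb3, the beta-3 adrenoceptor, fell by 1.59 ± 0.34 (adjusted p = 0.0194). On all 3 probes the MP and Injured 4 hr arrays were apart. Htr6 was called in 5 of 6 omissions and 11 of 12 other settings, whereas Adrb1 and Adrb3 were each called in 1 omission, that of MP 2.

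Of 46 voltage-gated channel probes 3 were called, all calcium channel subunits: Cacnb2 (-1.90), Cacna1e (-1.73) and Cacna1a (-1.59). Of 36 glutamate, GABA and glycine receptor probes, the metabotropic Grm6 (-1.95) and the kainate receptor subunit Grik1 (-1.76) were called. In the apoptosis list Apaf1, the scaffold of the apoptosome, was the 1 call of 27 probes at -1.80, where 2.09% of all probes were called lower. The medians of these 3 lists were -0.08, -0.02 and -0.44, against -0.27 over all probes. Each of these probes read higher on MP 2 than on MP 1 and MP 3 except Cacna1a, and each except Cacna1a became larger without MP 2.

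Among the other large falls, the ribosomal protein pseudogene Rps4x-ps9 read -1.82, -0.87 and -1.62 in MP and 1.00, 1.33 and 1.58 in Injured 4 hr and fell by 2.74 ± 0.45 (SE; adjusted p = 0.00654), the largest called fall. Its name marks a near copy of Rps4x, so its probe may read more than 1 gene. Ugt2b37, a glucuronosyltransferase that conjugates steroids and drugs, read -1.50, -3.53 and -2.71 against -0.18, -0.32 and -0.32 and fell by 2.31 ± 0.44 (adjusted p = 0.0127). It was the 1 call of 63 conjugation probes, where 2.09% of all probes were called lower. Tmed7, a cargo protein of the secretory pathway named here after its values were seen, fell by 1.84 ± 0.32 (adjusted p = 0.00883). Ntn1, the axon guidance cue netrin-1 (-2.20), Smad2, a mediator of TGF-beta signalling (-2.09), the chemokine receptor Ccr7 (-2.18), Chn1 (-2.23), Uggt1 (-2.20), Prl8a2 (-2.17), Gp2 (-2.13) and the ligand Dhh (-2.06) completed the 15 largest falls with 2 probes without a symbol, at -2.53 and -2.08. Cd82, a tetraspanin also named after its values were seen, fell by 1.27 (adjusted p = 0.0368), the smallest of the 92.

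Of the 29 probes named by rule that were called, 29 were still called without MP 2, 7 without MP 1, 4 without MP 3, and 7, 4 and 2 without Injured 4 hr 1, 2 and 3. In position-centred ratios 8 were called: Barhl1, Ntf3, Htr6, Nos1ap, Ugt2b37, Uggt1, Apaf1 and Grik1. Corrected ratios kept 20 of the 29.

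Cell type markers differed by list. The astrocyte list had a median of -0.92 over 14 probes and the oligodendrocyte list -1.04 over 12, with 6 and 5 probes lower at an unadjusted p under 0.05 and 0 called by limma. Over all probes 15.2% were lower at that p and 2.14% were called. Gfap read -0.24, 2.06 and -0.69 in MP and 2.00, 1.59 and 2.00 in Injured 4 hr, and Mbp, myelin basic protein, 0.02, 2.18 and -0.02 against 2.27, 2.22 and 2.14. In both of these defining markers MP 1 and MP 3 were far below the Injured 4 hr arrays, while MP 2 lay above them for Gfap and among them for Mbp. Without MP 2, 5 of 14 astrocyte and 7 of 12 oligodendrocyte probes were called lower, where 16.2% of all probes were. The neuron list, however, had a median of 0.05 over 26 probes, microglia and macrophage -0.35 over 10, and endothelium and pericyte 0.10 over 11. The meningeal and fibroblast list had a median of -0.29 over 10 and 1 call, Igfbp6, which binds insulin-like growth factors, at -1.65 (adjusted p = 0.0177). Ribosomal protein probes, which every cell expresses, all lay below 0 (67 of 67, median -1.06, 0 called by limma and 35 at an unadjusted p under 0.05). In corrected ratios these medians were -0.39 for astrocytes, -0.14 for oligodendrocytes, 0.65 for neurons and -0.12 for ribosomal proteins. The part of cell composition in the calls was not tested.

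The 92 falls were also read in the other groups. They were chosen as low in MP against the same Injured 4 hr arrays, which favours a position below Injured 4 hr in any other group, so these values are a description. The median of their group means was -1.81 in MP, -1.54 in Acet, -1.54 in CKIN, -1.57 in Indo and -1.36 in NS398, against -0.14 in Injured 4 hr and -0.52 in fresh Uninjured cord. Acet lay below Injured 4 hr on 90 of the 92, CKIN on 92, Indo on 89 and NS398 on 88, and Uninjured on 61. Over all tested probes with a value the share below Injured 4 hr was 66.8% in Acet, 64.8% in CKIN, 68.0% in Indo, 67.0% in NS398 and 45.1% in Uninjured. The drug arrays also differed from the others in their values: ratios that equal, to 4 decimals of their log2, a quotient of 2 whole numbers up to 12 made up 4.84% to 8.15% of values on every drug array and 0.183% to 0.737% on the Injured 4 hr and Uninjured arrays. The part of this difference in the values the drug groups share was not tested. In direct comparison, where the choice of probes low in MP favours a negative difference, MP minus Acet called 0 of the 92 by limma, with 12 lower and 0 higher at an unadjusted p under 0.05 and a median of -0.31 (all probes -0.04). MP minus CKIN called 0 of 88, with 12 lower and 1 higher and a median of -0.32 (all probes 0.15). A p that misses the threshold does not show that the drugs acted alike.

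MP and Acet differed on 1 of 4380 probes (0.0228%), with 276 (6.30%) at an unadjusted p under 0.05, 125 higher (2.85%) and 151 lower (3.45%). The 2 groups did not overlap on 11.6% of probes, with MP higher on 5.57%. The probe was Col1a1, the alpha-1 chain of fibrillar collagen I, which meningeal and perivascular fibroblasts make. Its probe 32D04 read 1.18, 1.15 and 0.62 in MP, -1.31, -1.19 and -1.63 in Acet and 0.16, 0.39 and 0.02 in Injured 4 hr. All MP arrays lay above all Injured 4 hr arrays, and all Acet arrays lay below them. MP minus Acet was 2.36 ± 0.34 (SE, n = 3 and 3; adjusted p = 0.00454), and 2.27 without MP 2 (adjusted p = 0.0114); without Acet 3 it was 2.23 and did not pass (adjusted p = 0.056). The call was also lost with the replicate number as a block (adjusted p = 0.0508) and with the compared arrays alone in the fit (adjusted p = 0.243). In deposited ratios the difference was 2.41 (adjusted p = 0.867). The second Col1a1 probe, 33G03, differed by 0.55 ± 0.45 (adjusted p = 0.994), so the gene's probes disagree in size.

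Other connective tissue genes lay the same way without passing. Fn1, fibronectin, differed by 1.54 ± 0.44 (SE; adjusted p = 0.411), Col1a2, the partner chain of Col1a1, by 1.60 ± 0.48 (adjusted p = 0.449) and Igfbp2, which binds insulin-like growth factors, by 1.75 ± 0.54 (adjusted p = 0.489). All 10 meningeal and fibroblast probes were above 0, with a median of 0.87 against -0.04 over all probes. Of the 10, 1 was called by limma and 5 were higher at an unadjusted p under 0.05, against 0.0228% and 2.85% of all probes. The neuron list had 23 of 26 probes above 0 (median 0.36), while the oligodendrocyte list had 11 of 12 below 0 (median -0.50) and the astrocyte list a median of -0.34. Without MP 2 the medians were 0.38 for meningeal and fibroblast probes (8 of 9 above 0), 0.09 for neurons (15 of 25 above 0), -1.12 for oligodendrocytes and -0.89 for astrocytes, against -0.23 over all probes. Fn1, Col1a2, Igfbp2 and, in other paragraphs, Ccl4, Irf1, Tbxa2r, Arg1, Klf9, Aqp4, Gfap, Mbp, Errfi1 and Junb were named after their values were seen.

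Il1a, Aqp4 and, on MP 1 and MP 3, Ccl4 and Gfap lay lower in MP than in Acet. Il1a read 0.05, 1.02 and 0.38 in Acet, above all 3 MP arrays; the difference was -1.59 ± 0.34 (SE; adjusted p = 0.175), and -1.75 without MP 2 (adjusted p = 0.0539). On Il1a, a called fall of MP against Injured 4 hr, Acet thus stayed beside the Injured 4 hr arrays. The CKIN mean lay below the Injured 4 hr mean on this probe, as on all 92 falls, so a lower value was not particular to MP. Aqp4, the astrocyte water channel, read -2.28, 0.08 and -0.89 in MP and 1.91, 1.80 and 1.97 in Acet, a difference of -2.92 (adjusted p = 0.411). Without MP 2, 5 probes were called, among them Ccl4 at -3.03 (adjusted p = 0.0114), Gfap at -2.24 (adjusted p = 0.0286), the early response factor Junb at -1.81 (adjusted p = 0.0258) and Col1a1. With all arrays, 2 of the 29 glucocorticoid-induced probes were higher and 2 lower at an unadjusted p under 0.05. Over all probes these shares were 2.85% and 3.45%. The list's median was 0.07 against -0.04 over all probes, with 16 probes above 0 and 13 below, and 0 were called. Errfi1, an inhibitor of EGF receptor signalling, differed by 1.41 (adjusted p = 0.411) and Tsc22d3 by 0.90 (adjusted p = 0.683). Ptgs2 differed by 1.02 (adjusted p = 0.653).

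**Figure D5:**
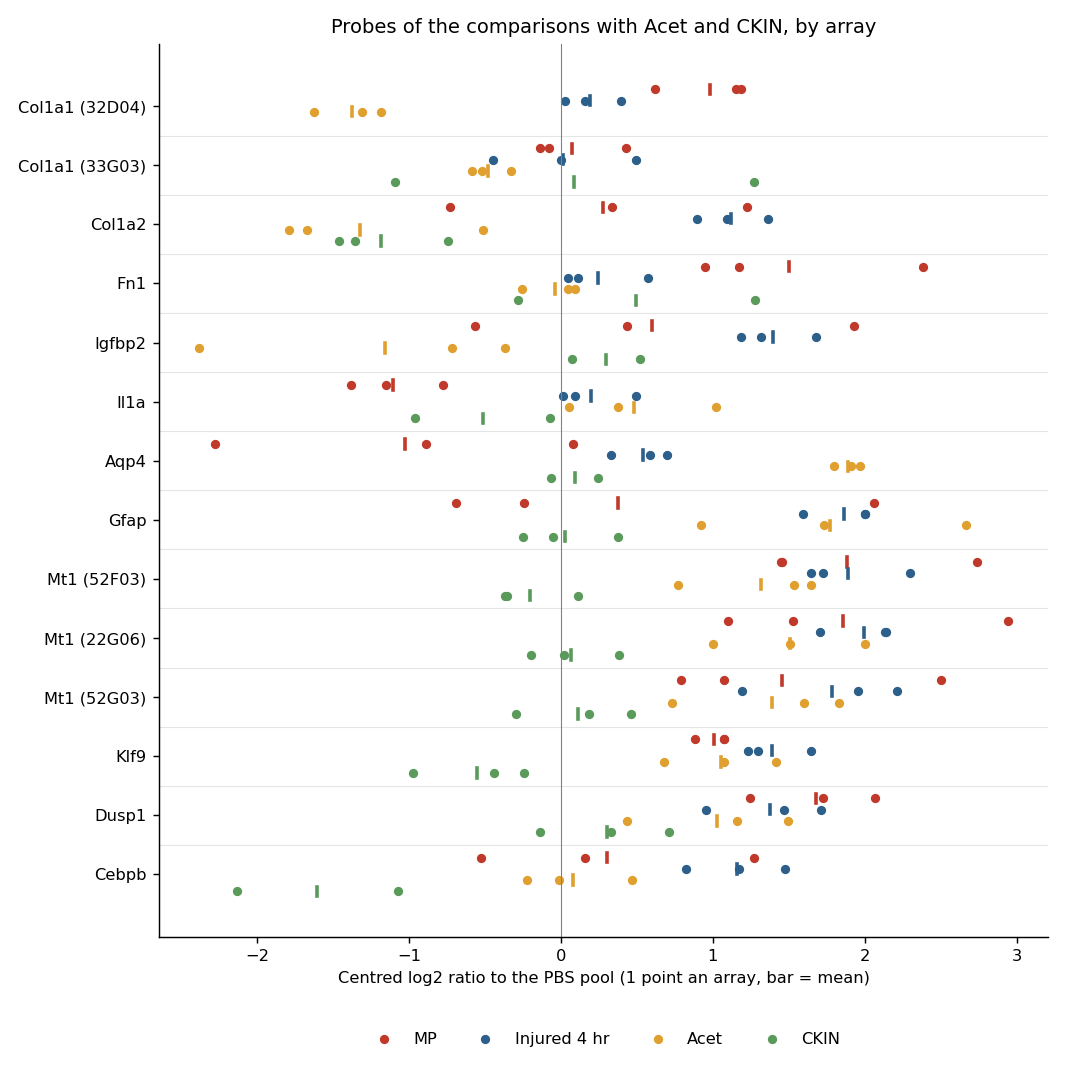
Centred log2 ratio to the PBS pool for 14 probes of the comparisons of MP with Acet and with CKIN; each point is 1 array and each vertical bar a group mean. On Col1a1 (32D04) MP and Acet lie on opposite sides of Injured 4 hr; on Mt1, Klf9 and Dusp1 the MP, Injured 4 hr and Acet arrays lie together above most or all of the CKIN arrays.

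MP and CKIN differed on 0 of 3634 probes by limma; 554 (15.2%) had an unadjusted p under 0.05, 350 higher (9.63%) and 204 lower (5.61%) in MP, and the median difference was 0.15. The groups did not overlap on 21.2% of probes, with MP higher on 12.4% and lower on 8.78%. Of 27 glucocorticoid-induced probes 9 were higher and 1 lower at that p, with a median of 0.21. Without MP 2, 6 were higher and 2 lower of 25, 12 lay above 0, and the median was -0.0014 against 0.0062 over all probes; in corrected ratios it was -0.03. Mt1, the metal-binding metallothionein, read 1.45, 2.74 and 1.45 in MP and 0.11, -0.36 and -0.35 in CKIN on probe 52F03, a difference of 2.08 ± 0.41 (SE, n = 3 and 3; adjusted p = 0.0893). Its probes 22G06 and 52G03 differed by 1.79 ± 0.44 (adjusted p = 0.0893) and 1.34 ± 0.45 (adjusted p = 0.198), each with all MP arrays above all CKIN arrays and MP 2 the highest. Klf9 read 1.08, 0.89 and 1.07 in MP against -0.97, -0.24 and -0.44 and differed by 1.56 ± 0.37 (adjusted p = 0.0893). Dusp1 read 1.25, 2.07 and 1.73 against 0.71, -0.14 and 0.33 and differed by 1.38 ± 0.37 (adjusted p = 0.111). Cebpb, a transcription factor that both cytokines and glucocorticoids induce, differed by 1.90 ± 0.49 (adjusted p = 0.0961), with 2 values in CKIN.

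The Injured 4 hr arrays show on which side the separation lies. Mt1 (52F03) averaged 1.89 ± 0.35 in Injured 4 hr, 1.88 ± 0.74 in MP and 1.32 ± 0.48 in Acet, and -0.20 ± 0.27 in CKIN (SD, n = 3 each). Klf9 averaged 1.39 ± 0.22, 1.01 ± 0.11, 1.06 ± 0.37 and -0.55 ± 0.38 in the same order. Both genes were thus low in CKIN, while MP lay beside the PBS-treated cultures. Gapdh read 0.71 to 1.19 in CKIN, 0.80 to 2.61 in MP and 2.15 to 2.17 in Injured 4 hr, and neuron and oligodendrocyte markers lay above 0 in MP minus CKIN on 21 of 23 and 12 of 12 probes (medians 0.72 and 0.80). Without MP 2 these were 19 of 23 and 9 of 12 (medians 0.38 and 0.11), and in corrected ratios 18 of 23 and 6 of 12 (medians 0.18 and 0.01). The part of Gapdh and these markers in the Mt1 and Klf9 values was not tested. In position-centred ratios, chosen after seeing the data, limma called 29 of 3634 probes, 22 higher and 7 lower in MP. Among them were Klf9 at 1.77 (adjusted p = 0.0448), Mt1 22G06 at 1.73 (adjusted p = 0.0479) and Cebpb at 1.98 (adjusted p = 0.0479). Mt1 52F03, Mt1 52G03 and Dusp1 were not called in this setting. Mt1 52F03 was called in 5 of 18 settings, with adjusted p from 0.0111 to 0.57.

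Mt1 is induced by metals, through the metal response element, and by glucocorticoids. Its RefSeq promoter (GRCr8, chr19:10832926-10833225, minus strand, printed 5′ to 3′ along the gene) is shown because all 3 of its probes lay on the same side in MP minus CKIN. Capitals mark the 6 matches to the element's core, TGCGCNC or TGCACNC on either strand, beginning between bases -176 and -55 from the start.
Mt1: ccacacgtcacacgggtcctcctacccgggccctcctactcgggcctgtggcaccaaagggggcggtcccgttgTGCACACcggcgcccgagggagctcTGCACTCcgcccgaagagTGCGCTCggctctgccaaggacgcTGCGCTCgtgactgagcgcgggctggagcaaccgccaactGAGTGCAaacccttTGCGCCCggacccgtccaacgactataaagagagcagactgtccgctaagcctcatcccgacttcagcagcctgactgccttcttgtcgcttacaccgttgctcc
TGCGCNC occurs in 15.7% and TGCACNC in 13.2% of the promoters of 27457 genes, and each occurs in 4 of the 20 measured glucocorticoid-induced genes that have a promoter in the table. TGTTCT does not occur in this window, and it occurs in 2 of the 20.

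MP set against the mean of Acet and CKIN, a contrast added after seeing the data, called 0 of 3622 probes by limma, with 261 at an unadjusted p under 0.05 and a smallest adjusted p of 0.366.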

How the data were processed

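The deposited table holds 5376 probes on 21 two-colour arrays, 3 in each of 7 groups taken from the labels. The deposited values are log2 ratios of sample over pool that the authors made from the 2 channels, per the labels. Dyes, scanner, background correction, normalization and build: not given in the sources used here. Ratio direction follows the order of the array titles, per the labels, and is likely rather than stated. Probe names come from the platform annotation, updated through gene identifiers (4423 probes with 1 symbol). Spot depth is unknown; the number of arrays limits the precision.

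Each array was centred on its median. Limma 3.58.1 (R 4.3.3) fitted 1 coefficient per group over all 21 arrays, and probes with 2 or more values a side were tested, 2-sided, with Benjamini-Hochberg adjustment over all probes of a comparison and a threshold of 0.05. Corrected ratios had a loess trend (span 0.4) on the Injured 4 hr mean and the plate medians removed. The fit was tested before use on simulated arrays in which all groups had the same spread per probe. For MP minus Injured 4 hr it recovered 18% of 50 log2 changes of 1 and 70% of 50 changes of 2. The median standard deviation was 0.49 in MP and 0.23 in Injured 4 hr, so these shares may not hold for the real arrays. Named were, among called probes whose groups do not overlap, the 15 largest rises and falls against Injured 4 hr and 5 against Acet and CKIN, up to 4 called probes per gene list, the extremes of the steroid, cytokine, prostanoid and nitric oxide lists, and a panel of 30 genes; further probes are marked where they occur. Members, lists and rule were chosen with earlier results of these data known. Promoter sequences are RefSeq's, GRCr8, 250 bases before to 50 after each start.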

Additional observations from a re-analysis of the deposited data

How the results depend on the processing

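MP minus Injured 4 hr gave 94 calls, 2.13% of them higher. The count was 3171 in deposited ratios, 35 with quantile normalization (25.7% higher), 639 with scale normalization, 46 in corrected ratios (26.1% higher), 24 with the compared arrays alone in the fit, 36 with the set of sparse arrays over the whole table as a term (27.8% higher), 19 in position-centred ratios (10.5% higher) and 1374 for MP against the PBS pool; leaving out 1 array gave 3 to 608. The whole-table array set, position-centred ratios and corrected ratios without the second MP array were chosen after seeing the data. Called probes of the gene lists numbered 16, and 380, 9, 125, 5, 8, 6 and 181 in deposited, quantile-normalized and scale-normalized ratios, the compared arrays alone, the whole-table array set, position-centred ratios and against the pool, and 1 to 130 with 1 array left out.

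MP minus Acet gave 1 call. It gave 0 in deposited ratios, 0 with the compared arrays alone, 2 in corrected ratios, 8 with the whole-table array set, 19 in corrected ratios without the second MP array, and 0 to 5 with 1 array left out. MP minus CKIN gave 0 calls, and 8 with quantile normalization, 2 with scale normalization, 2 with the whole-table array set, 29 in position-centred ratios, 1 in corrected ratios without the second MP array, and 0 to 6 with 1 array left out. The cause of these changes was not tested.

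In deposited ratios, whose arrays keep their own medians, 11 named falls had a difference above 0: Il1a 0.69, Nos3 probe 52A02 0.20, Apaf1 0.19, Grm6 0.041, Grik1 0.22, Cacnb2 0.085, Cacna1e 0.26, Cacna1a 0.40, Htr6 0.12, Adrb3 0.40 and Igfbp6 0.33.

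The labels do not say what the replicate numbers mark. Deviations of same-numbered arrays correlated at -0.02, -0.07 and 0.01 for MP and Injured 4 hr, 0.34, 0.51 and 0.0006 for MP and Acet, and -0.18, 0.14 and 0.18 for MP and CKIN; in none of the 3 comparisons were all pairs over 0.1, so the numbers were not taken to pair the arrays. With the replicate number as a block the counts were 74 against Injured 4 hr, 0 against Acet and 5 against CKIN.

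Groups of 3 arrays, an array that stands apart and ratios without a common centre limit every count here. The signal behind a ratio was not used here, so weak spots could not be set aside.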

Other observations

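Position-centred ratios, in which MP minus CKIN gave 29 calls, also gave calls outside the glucocorticoid genes. Cx3cr1, the fractalkine receptor of microglia, was higher in MP by 1.69 (adjusted p = 0.0485, limma), L1cam, an axonal adhesion molecule, by 1.51 (adjusted p = 0.0479) and Hprt1, a purine salvage enzyme, by 1.73 (adjusted p = 0.0455). The differences were -2.40 for Gabra3, a GABA-A receptor subunit (adjusted p = 0.0485), and -2.33 for Hapln1, which links hyaluronan to proteoglycans (adjusted p = 0.0469). In array-wide centred ratios limma called 0 probes of this comparison and 554 had an unadjusted p under 0.05. There the microglia and macrophage list was split, so Cx3cr1 does not stand for it. Of its 8 probes 5 lay above 0 and 3 below, with 1 higher and 1 lower at an unadjusted p under 0.05.

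In corrected ratios of MP minus Injured 4 hr, limma called 46 of 4392 probes, 12 of them higher. Of 26 neuron probes 1 was called, Nefl, the light neurofilament, at 1.46 (adjusted p = 0.0156). Of 43 cytokine and chemokine probes 1 was called higher, Il3 at 1.51 (adjusted p = 0.0156), and 1 lower, Il1a (adjusted p = 0.0495). In centred ratios Nefl and Il3 differed by 0.28 (adjusted p = 0.834) and 1.02 (adjusted p = 0.235). Nefl read 2.31, 4.39 and 2.82 in MP and 2.81, 3.20 and 2.65 in Injured 4 hr, so the groups overlap.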
